A study of Mus musculus with 2 samples.

Results

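The genes described are the translation initiation and elongation factors of the mouse, taken as every protein-coding gene on an autosome whose symbol starts with Eif or Eef in the GENCODE M21 annotation. There were 66 such genes among 55536 annotated genes, of which 20807 were protein-coding and autosomal. Reads of their transcripts came from total RNA of adrenal gland tissue in 2 libraries, replicates 1 and 2 of a single group. The assay was long-read RNA-seq, which reads whole cDNA molecules and so can show which exons were joined. The mice were C57BL/6J, an inbred strain, carried no stated mutation and received no stated treatment. Females are named in both descriptions although sex is entered as not collected, and the age of the mice is unknown. The replicates were separate biosamples of that strain, and no other condition was present. With 1 library on each side, no test between the libraries has a replicate check, so ratios are given with counting error and no p-value.

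Protein synthesis starts when eIF2 brings the initiator tRNA to the small ribosomal subunit and eIF3, eIF1 and eIF1A hold that complex open for scanning. The cap of the mRNA is bound by eIF4E, the scaffold eIF4G joins it to the helicase eIF4A, and eIF5 and eIF5B complete start codon selection and subunit joining. In elongation, eEF1A delivers aminoacyl-tRNA, the eEF1B subunits recharge it with GTP, and eEF2 moves the ribosome along by a codon. In the adrenal gland these factors serve a cortex that makes steroid hormones and a medulla that makes catecholamines.

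Replicate 1 held 810239 reads and replicate 2 held 587861 reads. CPM is the reads of a gene per 1000000 reads of its library. It is not divided by length, because each read stands for a cDNA molecule. A gene without a read could still have had up to 3 reads, or 3.70 CPM in replicate 1 and 5.10 CPM in replicate 2. All 7 cortex markers and all 7 medulla markers were detected, with 62806 and 5055 reads in replicate 1 and with 53498 and 5040 reads in replicate 2. None of 5 kidney markers had a read, and liver markers had 2 and 0 reads in replicates 1 and 2. The 5 erythroid markers had 1479 reads in replicate 1 and 132 in replicate 2. Among them Alas2 went the other way, with 4 and 9 reads, and the globin genes have short models of 554 to 703 nt. Of the adipocyte markers, 4 of 5 had 96 and 23 reads, and 2 of 5 lymphocyte markers had 5 and 16 reads. The part of these cells in the values below was not tested. In bulk tissue, fewer cells of a type and less RNA per cell cannot be told apart.

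Transcripts of 63 of the 66 genes were detected, 60 of them in replicate 1 and all 63 in replicate 2. Eef1akmt3, Eif3j2 and Eif4e1b had no read in either library. In replicate 1, Eef1a2, Eif4ebp3 and Eif5a2 had 0 reads as well. In replicate 2, Eef1a2 and Eif4ebp3 had 2 reads each and Eif5a2 had 1. The other 60 genes had at least 10 reads over both libraries and enter the ratios below.

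The factors took 1.21% of all reads in replicate 1 (95% Clopper-Pearson interval 1.19 to 1.23%, 9809 reads) and 2.05% in replicate 2 (2.02 to 2.09%, 12079 reads), a mean of 1.63% ± 0.60 (SD, n = 2). Intervals cover counting error only, since amplified reads are not independent molecules. Eef2 held the reads that made the difference. It encodes the translocase of elongation, lies on mm10 chr10:81176631-81182498, and had 475 reads in replicate 1 and 5571 in replicate 2. It made up 4.84% of the reads of all factors in replicate 1 (4.43 to 5.29%) and 46.1% in replicate 2 (45.2 to 47.0%). Its level averaged 5031 ± 6287 CPM (SD, n = 2), a spread larger than the mean. Without Eef2 the factors held 1.15% of the reads in replicate 1 and 1.11% in replicate 2, a choice made after the values were seen.

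**Figure D1:**
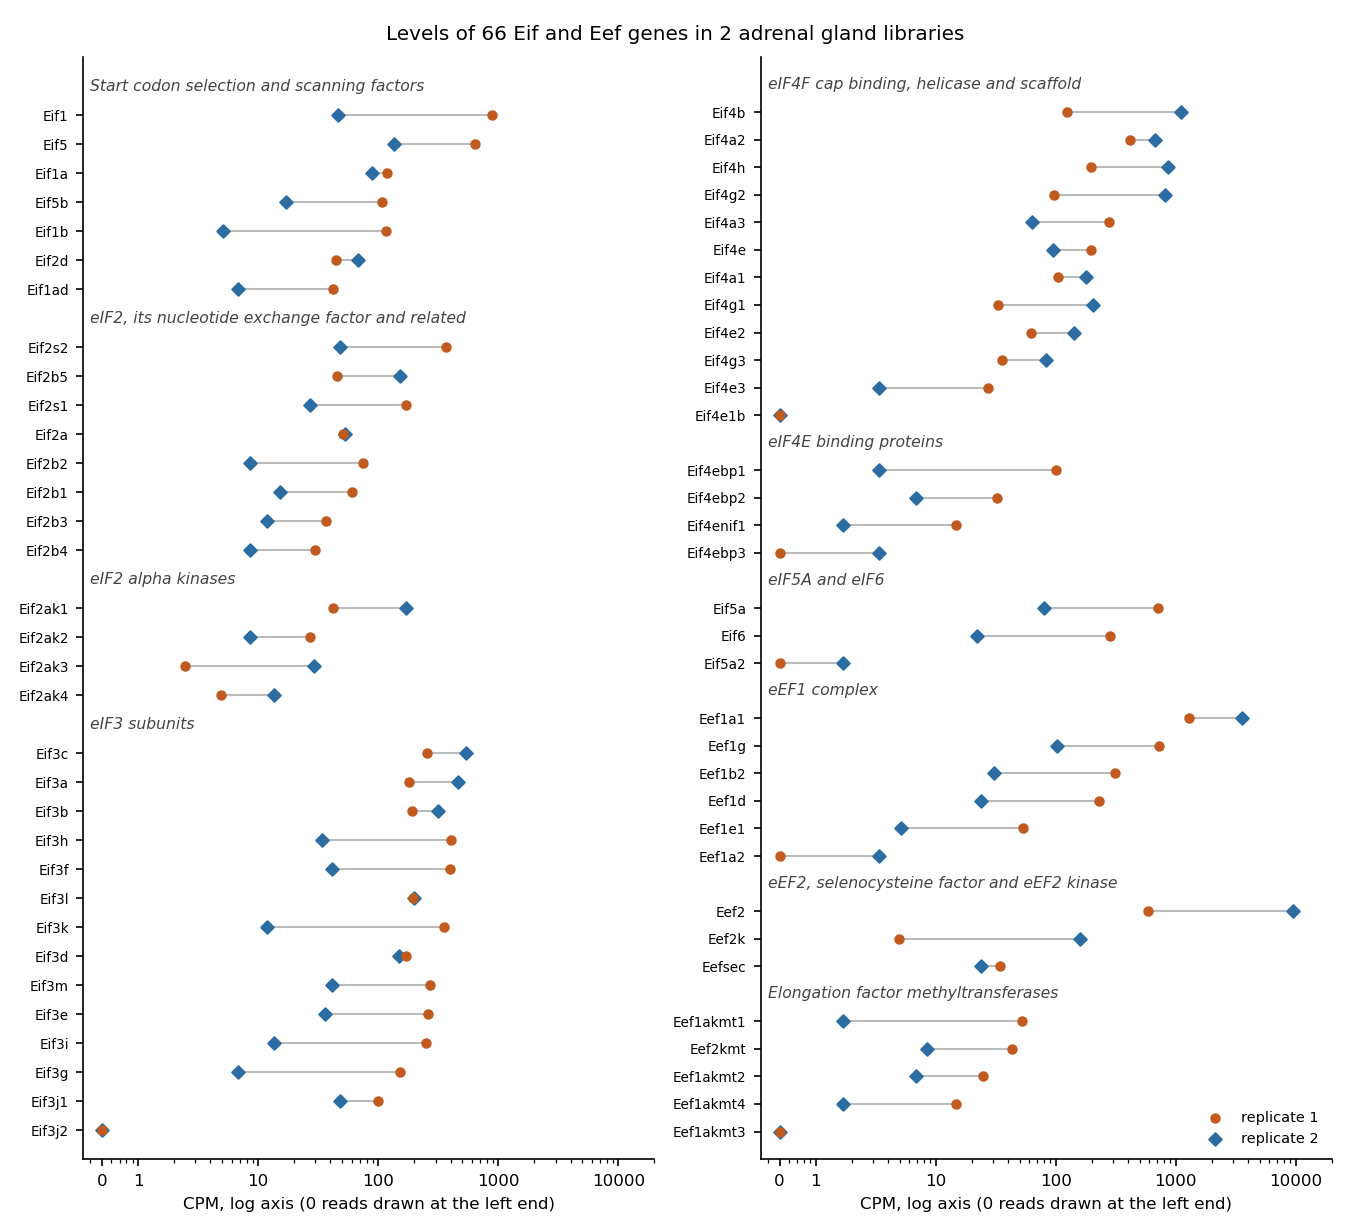
Level (CPM, log axis) of each of the 66 genes in replicate 1 (circles) and replicate 2 (diamonds), grouped by role and ordered by mean level, with 0 reads drawn at the left end. Within most roles the circles lie to the right of the diamonds, while Eef2 and several eIF4F genes lie the other way round.

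Among elongation factors, Eef1a1, which encodes the carrier of aminoacyl-tRNA, had 1297 CPM in replicate 1 and 3552 CPM in replicate 2. It lies on chr9:78478449-78489151 and was the most read factor in replicate 1 and the second after Eef2 in replicate 2. Its paralog Eef1a2, which takes over in adult muscle and neurons, was listed with 0 and 2 reads beside 1051 and 2088 reads of Eef1a1. In replicate 2 that made 1044 reads of Eef1a1 for each read of Eef1a2 (289 to 8626). On annotated models alone Eef1a2 had 0 reads in either library, so this ratio rests on 2 reads that match no annotated Eef1a2 transcript in full. Eef1g, a subunit of the exchange factor that recharges eEF1A, had 721 CPM in replicate 1 and 102 CPM in replicate 2. Eef1b2, a catalytic subunit of that exchange factor, had 309 CPM in replicate 1 and 30.6 CPM in replicate 2. Of the 6 genes of the eEF1 group, 4 were more than 2-fold higher in replicate 1, Eef1a1 was within 2-fold, and Eef1a2 had too few reads. Of all 9809 genes with at least 10 reads, 37.3% were at least 2-fold higher in replicate 1 and 33.2% in replicate 2, so counts of this kind are read against those shares. Folds use TMM-scaled library totals, a scaling that sets the typical gene to no difference, so they differ from ratios of CPM by a constant. The range in brackets after a fold or a ratio is its exact 95% counting interval.

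Eef1a1 and Eef1g have annotated models of nearly the same length, 1794 and 1864 nt, yet differed between the libraries in opposite directions. There were 1.80 reads of Eef1a1 for each read of Eef1g in replicate 1 (1.62 to 1.99) and 34.8 in replicate 2 (26.9 to 45.8). The intervals do not overlap, so the balance of the carrier and its exchange factor subunit differed between the libraries beyond counting error.

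Eef2k encodes the kinase that phosphorylates and inhibits eEF2, and its counts were 4 and 94 reads in replicates 1 and 2. It lay with Eef2 on the side of replicate 2, 23.4-fold higher there (8.83 to 87.5), where Eef2 was 11.7-fold higher (10.6 to 12.8). Eefsec, which delivers selenocysteine tRNA, had 28 reads in replicate 1 and 14 in replicate 2, a ratio of 2.01 (1.02 to 4.13). Of the lysine methyltransferases that modify eEF1A and eEF2, 4 of 5 were detected and all 4 were more than 2-fold higher in replicate 1. The models of Eef1akmt1, Eef1akmt2 and Eef1akmt4 have 880, 1107 and 1134 nt. Under 1500 nt, 87.7% of all genes lay on that side. With the length trend of all genes removed, Eef1akmt1 and Eef2kmt stayed there, at 1.46 and 2.41 on the log2 scale. Eef1akmt4 then lay at 0.09 and Eef1akmt2 at -1.22, on the side of replicate 2. Eef1akmt1 had 42 reads in replicate 1 and 1 read in replicate 2. Eef2kmt had 35 and 5 reads, and Eef1akmt2 had 20 and 4 reads.

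Among the factors of start codon selection, Eif1, which guards against wrong start codons, had 879 CPM in replicate 1 and 45.9 CPM in replicate 2, or 712 and 27 reads. Its paralog Eif1b had 94 and 3 reads. Both genes were much higher in replicate 1, by 26.5-fold (18.1 to 40.5) and 31.5-fold (10.5 to 156). The reads of Eif1 for each read of Eif1b were 7.57 in replicate 1 (6.10 to 9.50) and 9.0 in replicate 2 (2.77 to 46.4), intervals that overlap. Eif5, which makes eIF2 hydrolyse its GTP at the start codon, had 644 CPM in replicate 1 and 134 CPM in replicate 2. Eif1a had 118 CPM in replicate 1 and 88.5 CPM in replicate 2, within 2-fold.

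For eIF2, the carrier of initiator tRNA, Eif2s2 (the beta subunit) had 369 CPM in replicate 1 and 47.6 CPM in replicate 2, and Eif2s1 (the alpha subunit, the target of the stress kinases) had 170 and 27.2 CPM. The nucleotide exchange factor eIF2B reactivates eIF2. Its catalytic subunit gene Eif2b5 had 45.7 CPM in replicate 1 and 153 CPM in replicate 2, 2.42-fold higher in replicate 2 (1.63 to 3.65). The other 4 eIF2B subunit genes, Eif2b1 to Eif2b4, were each more than 2-fold higher in replicate 1. Their models are 1555 to 2025 nt long, against 2554 nt for Eif2b5.

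The 4 kinases that phosphorylate eIF2 alpha under stress summed to 76.5 CPM in replicate 1 and 221 CPM in replicate 2. Eif2ak1, the haem-regulated kinase, had 34 reads in replicate 1 and 100 in replicate 2. Eif2ak2, which senses double-stranded RNA, had 22 and 5 reads. Eif2ak3, which senses unfolded protein in the endoplasmic reticulum, had 2 and 17 reads, 8.45-fold higher in replicate 2 (2.01 to 75.4). Eif2ak4, which senses missing amino acids, had 4 and 8 reads. The highest level among them was 170 CPM, for Eif2ak1 in replicate 2. Eif2ak2 was the most read of the last 3 in replicate 1 and the least read in replicate 2. Of its 22 reads in replicate 1, however, 20 were on models that lack the 3′ part of the transcript and 1 on an annotated model. These counts are too low to rank the 3 genes.

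Cap binding, unwinding and scaffold genes summed to 1560 CPM in replicate 1 and 4220 CPM in replicate 2. Of the 11 detected, 3 were at least 2-fold higher in replicate 1, 4 in replicate 2, and 4 were within 2-fold. Eif4b and Eif4h, which both stimulate the helicase eIF4A, had 123 and 195 CPM in replicate 1 and 1099 and 862 CPM in replicate 2. Eif4b was 6.42-fold higher in replicate 2 (5.20 to 8.01) and Eif4h 3.19-fold (2.66 to 3.84). The scaffold Eif4g1 had 27 and 120 reads, 4.42-fold higher in replicate 2 (2.89 to 6.98). Its relative Eif4g2, which lacks the site for eIF4E, had 78 and 482 reads, 6.14-fold higher in replicate 2 (4.83 to 7.91). The models of Eif4b, Eif4h, Eif4g1 and Eif4g2 have 3854, 2726, 3094 and 7995 nt. With the length trend of all genes removed, Eif4b and Eif4g2 stayed on the side of replicate 2, at -1.21 and -1.89 on the log2 scale. Eif4h and Eif4g1 came within 2-fold, at -0.79 and -0.81. Eif4g2 was read more often than Eif4g1 in both libraries, by 2.89 to 1 in replicate 1 (1.84 to 4.66) and 4.02 to 1 in replicate 2 (3.28 to 4.95). On annotated models alone Eif4g2 had 44 and 378 reads and Eif4g1 had 1 and 2.

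The helicase paralogs stood in nearly the same ratio in both libraries when all reads were counted. Eif4a2, on chr16:23107444-23114136, had 334 reads in replicate 1 and 395 in replicate 2. Eif4a1, on chr11:69666936-69672423, had 84 reads in replicate 1 and 104 in replicate 2. Eif4a2 therefore exceeded Eif4a1 3.98-fold in replicate 1 (3.12 to 5.11) and 3.80-fold in replicate 2 (3.05 to 4.76). Of the Eif4a1 reads, 32 of 84 in replicate 1 were unspliced, and 7 of 104 in replicate 2. On annotated models alone the ratio was 6.02 in replicate 1 (4.42 to 8.35) and 2.76 in replicate 2 (2.16 to 3.57), and these intervals do not overlap.

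The ratio of the cap-binding paralogs, whose models differ in length at 1421 nt for Eif4e and 3394 nt for Eif4e2, differed between the libraries. Eif4e had 159 reads in replicate 1 and 56 in replicate 2, and Eif4e2, a cap-binding protein that represses translation, had 50 and 83 reads. Eif4e exceeded Eif4e2 3.18-fold in replicate 1 (2.30 to 4.46), and was lower than it, at a ratio of 0.675 (0.472 to 0.958), in replicate 2. On annotated models alone the ratio in replicate 2 was 0.836 (0.553 to 1.26), an interval that includes equal numbers. With the length trend of all genes removed, Eif4e lay at -1.25 and Eif4e2 at 0.76 on the log2 scale, the other way round. The Eif4e2 model that gave the length had only 3 of its 50 reads in replicate 1, where a model of 1119 nt had 25.

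Of the proteins that hold eIF4E away from eIF4G, Eif4ebp1 had 82 reads in replicate 1 and 2 in replicate 2, a 41.2-fold ratio (11.1 to 346). Eif4ebp2 had 26 and 4 reads, and Eif4enif1, which carries eIF4E into the nucleus, had 12 and 1 reads. Eif5a, the hypusine-bearing factor that relieves stalled ribosomes, had 716 CPM in replicate 1 and 80.0 CPM in replicate 2, and its paralog Eif5a2 had 0 and 1 reads. Eif6, which keeps free large ribosomal subunits apart from small ones, had 283 CPM in replicate 1 and 22.1 CPM in replicate 2.

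Over the 60 genes with at least 10 reads, 37 (61.7%) were at least 2-fold higher in replicate 1, where 37.3% of the 9809 genes of the series with as many reads were. A further 9 (15.0%) were at least 2-fold higher in replicate 2, where 33.2% of all genes were, and 14 were within 2-fold. The median log2 ratio, replicate 1 over replicate 2, was 2.39 for the factors and 0.01 for all genes. Past 2-fold was common, with 70.5% of all genes, so a difference of that size in a single factor is not unusual here.

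**Figure D2:**
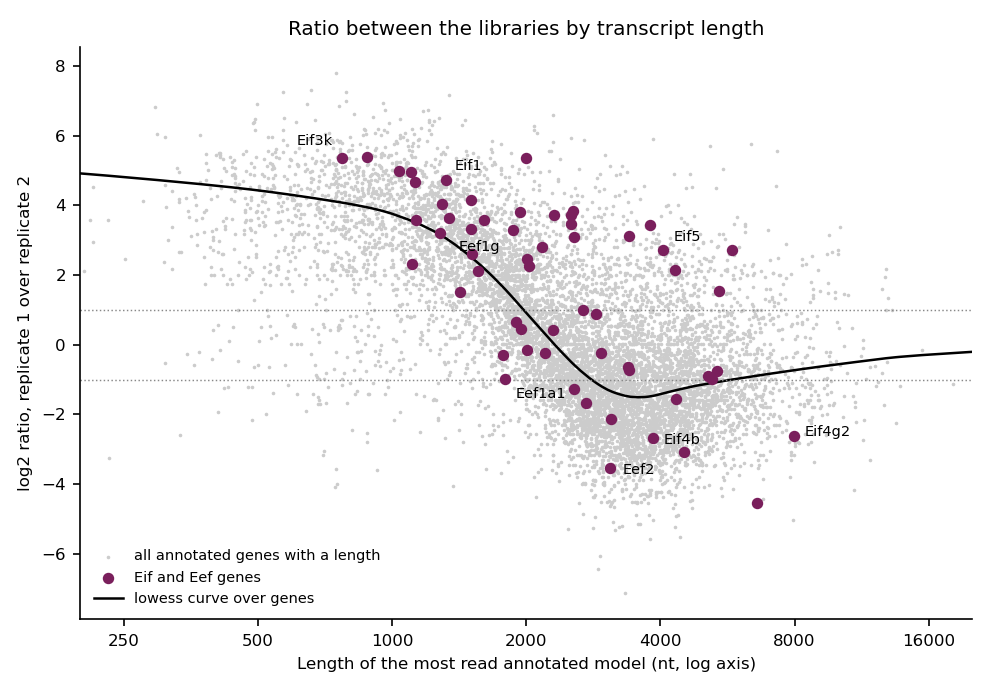
Log2 ratio of replicate 1 over replicate 2 against the length of the most read annotated model (nt, log axis) for all annotated genes with at least 10 reads and a length (grey) and for the Eif and Eef genes (purple), with a lowess curve over genes and dotted lines at 2-fold. The median ratio is above 0 under 2500 nt and below 0 from there on, and many of the factors lie above the curve.

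The side on which a factor lay went with the length of its transcript. The 37 genes higher in replicate 1 had a median model of 1864 nt, the 14 within 2-fold one of 2582 nt, and the 9 higher in replicate 2 one of 3854 nt. Spearman's rho of the log2 ratio with length was -0.66 over 58 factors with a model length and -0.62 over 9173 genes, all measured in the same 2 libraries. Under 1500 nt all 12 factors lay on the side of replicate 1, as did 87.7% of all genes in that class. From 1500 to 2500 nt, 12 of 19 factors lay on that side and 0 on the other, where all genes split into 49.2% and 12.7%. From 2500 to 4000 nt, 7 of 16 lay on the side of replicate 1 and 5 on that of replicate 2, where all genes split into 13.5% and 56.1%. At 4000 nt and above, 4 of 11 lay on each side, where all genes split into 13.2% and 52.7%. The 4 on the side of replicate 1 were Eif5, Eif2ak2, Eif3j1 and Eif4ebp2. In replicate 1, models lacking the 3′ part held 71.6% of the reads of Eif5, 90.9% of Eif2ak2 and 27.2% of Eif3j1. Of 26 Eif4ebp2 reads there, 11 were unspliced. The model length therefore does not stand for all reads of these genes.

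With the length trend of all genes removed, 27 of 58 factors (46.6%) were at least 2-fold higher in replicate 1, against 24.3% of all genes, and 10 (17.2%) were higher in replicate 2, against 25.6% of all genes. The median was 0.88 on the log2 scale for the factors and -0.09 for all genes. Of the 46 factors past 2-fold, 31 kept their side and 2, Eif4e and Eef1akmt2, turned to replicate 2. The other 13 came within 2-fold, except Eif5b and Eif4enif1, which had no model length and could not be adjusted. Eef2 at 3089 nt and Eef2k at 6580 nt stayed on the side of replicate 2, at -2.21 and -3.66 from the trend on the log2 scale. Eef1a1, within 2-fold before, lay at -2.57 and Eif4a1 at -1.96. Eif2s1, Eif4ebp1 and Eef1e1 lay at 4.61, 4.44 and 4.41, on the side of replicate 1. Eif2s2 and Eif5 lay at 4.91 and 4.13, but 43.1% and 61.3% of their reads in replicate 1 came from a model far shorter than the one that gave the length. For Eif2s2 that length, 3785 nt, is of an annotated retained-intron transcript with 112 reads in replicate 1 and 0 in replicate 2. The protein-coding Eif2s2-201 has 2542 nt.

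The 13 detected subunits of eIF3 allow a comparison within a complex, since most of its subunits are present in equal numbers in the assembled factor. In replicate 1 their levels lay within 4.04-fold of each other, between 100 CPM for Eif3j1 and 404 CPM for Eif3h, with a median of 248 CPM. In replicate 2 they spanned 79.8-fold, between 6.80 CPM for Eif3g and 543 CPM for Eif3c, with a median of 40.8 CPM. The narrow range in replicate 1 includes incomplete models. On annotated models alone, an alternative chosen after the values were seen, the subunits spanned 51.2-fold in replicate 1, between 6 reads for Eif3a and 307 for Eif3f. They spanned 58.8-fold in replicate 2, between 4 reads for Eif3g and 235 for Eif3c, so that the libraries no longer differed much in spread.

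The 3 subunits with the highest mean level have long transcripts. Eif3c had 253 CPM in replicate 1 and 543 CPM in replicate 2. Eif3a had 179 and 464 CPM, and Eif3b had 193 and 313 CPM. The subunits with the shortest transcripts were low in replicate 2. Eif3k had 287 reads in replicate 1 and 7 in replicate 2, 41.2-fold (19.8 to 103), and Eif3g had 123 and 4 reads, 30.9-fold (11.8 to 115).

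Across the 13 subunits, Spearman's rho of CPM with model length was -0.36 in replicate 1 and 0.85 in replicate 2. On annotated models alone it was -0.53 in replicate 1 and 0.69 in replicate 2. Eif3l and Eif3d, with models of 1942 and 1899 nt, had nearly equal levels in both libraries, at 195 and 169 CPM in replicate 1 and 199 and 150 CPM in replicate 2. Eif3f went against the order of length. Its model has 2514 nt, and it had 392 CPM in replicate 1 and 40.8 CPM in replicate 2. Eif3j1, with the longest model of the 13 at 5413 nt, was also far from the top in replicate 2. It had 100 CPM in replicate 1 and 47.6 CPM in replicate 2.

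**Figure D3:**
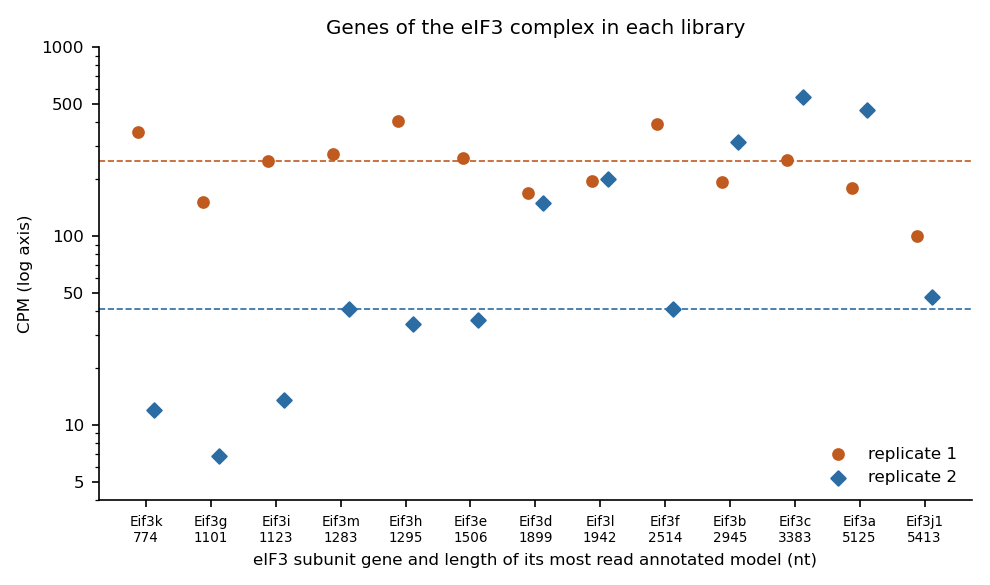
Level (CPM, log axis) of the 13 detected eIF3 subunit genes in replicate 1 (circles) and replicate 2 (diamonds), ordered left to right by the length of the most read annotated model, with dashed lines at the median of each library. Replicate 1 stays between 100 and 404 CPM, while replicate 2 runs between 6.80 and 543 CPM and is highest for Eif3b, Eif3c and Eif3a.

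The use of internal exons could be compared in few of the factors. Over annotated internal exons with at least 20 spliced reads in each library and at least 5% of reads on the rarer form, 8 exons in 6 genes varied. In 0 of the 8 did the 95% intervals of the libraries fail to overlap, where 2.51% of 717 such exons of all genes differed. At these depths a difference of several percentage points lies within the intervals.

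The exon with the most even use was in Eif4h, at chr5:134624441-134624500 on the minus strand of mm10. It has 60 nt, a multiple of 3, and lies inside the coding sequence. In replicate 1, 80 reads included it and 62 skipped it, 56.3% inclusion (47.8 to 64.6%). In replicate 2, 297 reads included it and 195 skipped it, 60.4% (55.9 to 64.7%). The 2 forms are Eif4h-205 with the exon, at 79 and 288 reads, and Eif4h-201 without it, at 60 and 186 reads. Eif4h itself was 3.19-fold higher in replicate 2, while the intervals of the exon's share overlapped.

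In Eif4a2 an exon of 140 nt, which is not a multiple of 3, at chr16:23109120-23109259 on the plus strand, was included in 94.5% of spliced reads in replicate 1 (91.4 to 96.7%) and 90.7% in replicate 2 (87.3 to 93.4%). In Eif2ak1 an exon of 234 nt at chr5:143899014-143899247 on the plus strand was included in 88.9% (70.8 to 97.6%) and 88.7% (80.6 to 94.2%). In Eif4g2 an exon of 114 nt at chr7:111076280-111076393 on the minus strand was included in 93.9% (85.2 to 98.3%) and 95.3% (92.9 to 97.0%). The lengths of the Eif2ak1 and Eif4g2 exons are multiples of 3. The other varying exons were 3 in Eif2d, of 46, 104 and 150 nt, and 1 in Eif2a, of 119 nt, each included in 91.9% of reads or more in both libraries.

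The sequences of the optional exons are shown because they are the stretches by which the forms of each mRNA differ. Skipping the Eif4a2 exon also shifts the reading frame after it. They were read from the GENCODE M21 transcripts on mm10, 5′ to 3′ on the strand of the gene, with the exon in capitals and 20 bases of the exons on either side in lower case.
Eif4h exon: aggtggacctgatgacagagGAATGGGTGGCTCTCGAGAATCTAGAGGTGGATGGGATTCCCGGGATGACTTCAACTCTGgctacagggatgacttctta
Eif4a2 exon: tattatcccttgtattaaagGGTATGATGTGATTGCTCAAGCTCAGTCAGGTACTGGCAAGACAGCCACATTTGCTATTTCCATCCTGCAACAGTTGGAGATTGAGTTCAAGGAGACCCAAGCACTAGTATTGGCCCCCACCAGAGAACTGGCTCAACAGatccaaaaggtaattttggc
Eif2ak1 exon: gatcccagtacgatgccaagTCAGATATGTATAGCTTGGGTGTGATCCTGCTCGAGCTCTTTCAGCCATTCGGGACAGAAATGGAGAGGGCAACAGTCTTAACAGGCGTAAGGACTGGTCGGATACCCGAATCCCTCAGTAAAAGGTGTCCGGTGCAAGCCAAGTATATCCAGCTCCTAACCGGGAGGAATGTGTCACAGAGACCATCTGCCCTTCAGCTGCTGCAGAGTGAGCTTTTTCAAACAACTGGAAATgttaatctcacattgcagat
Eif4g2 exon: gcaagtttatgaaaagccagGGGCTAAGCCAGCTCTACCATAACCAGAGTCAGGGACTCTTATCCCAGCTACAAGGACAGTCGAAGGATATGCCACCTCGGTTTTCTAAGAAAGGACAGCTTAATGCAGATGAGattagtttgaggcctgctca

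**Figure D4:**
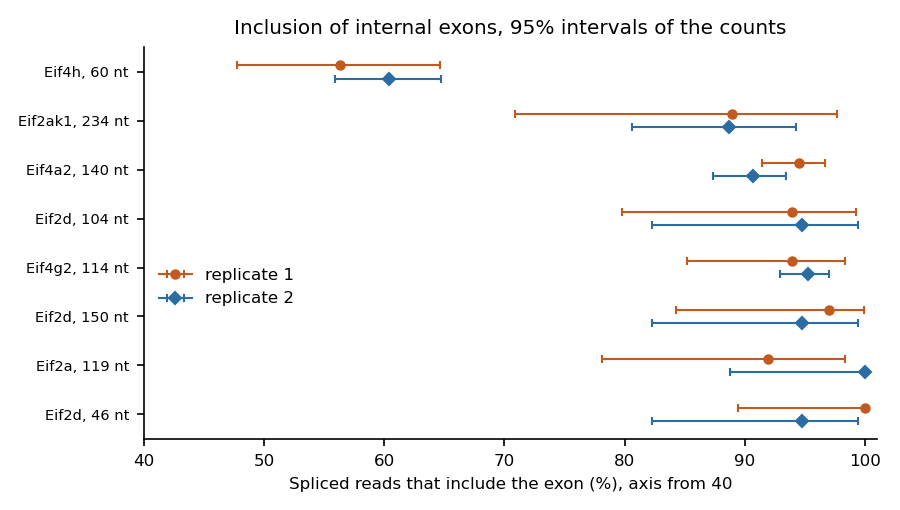
Share of spliced reads that include each of the 8 varying internal exons (percent, axis from 40) in replicate 1 (circles) and replicate 2 (diamonds), with 95% Clopper-Pearson intervals. The intervals of the 2 libraries overlap for every exon, and the Eif4h exon, at 56.3% and 60.4%, is the only one near even use.

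Where the reads of a gene began and ended could be followed in more genes. TALON, the program behind the deposited models, calls a model an incomplete match when it holds part of the junctions of an annotated transcript. Such models took 18.4% of the reads of the factors in replicate 1 (17.6 to 19.1%) and 10.5% in replicate 2 (9.94 to 11.0%). Over all autosomal protein-coding genes they took 10.8% and 10.9%. The shares of the factors in replicate 2 are lowered by Eef2, which held 46.1% of their reads there. Of its reads in replicate 2, 3.81% were on incomplete models and 0.377% on models lacking the 3′ part. Incomplete models of the prefix type, which hold the start of an annotated transcript and lack its 3′ part, took 9.62% of the reads of the factors in replicate 1 and 3.28% in replicate 2, against 3.59% and 2.89% for all those genes. Most of the excess lay in 4 genes, chosen after the values were seen. Without Eif5, Eif3c, Eif2s2 and Eif3a, incomplete models took 10.3% of the reads in replicate 1 and 8.0% in replicate 2, and those of the prefix type took 2.22% and 1.30%. Reads of the types recorded as both or none, which made up 2.72% and 3.0% of incomplete reads in replicate 1 and 1.42% and 1.58% in replicate 2, are not among the prefix shares.

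For Eif5, on chr12:111538016-111546752, 71.6% of 522 reads in replicate 1 and 13.9% of 79 reads in replicate 2 were on prefix models. The most read model in replicate 1 had 7 exons and 906 nt, with 320 reads, or 61.3% (57.0 to 65.5%), beside 3 reads in replicate 2. The full-length Eif5-202, of 12 exons and 4050 nt, had 33 reads in replicate 1 and 27 in replicate 2. For Eif3c, a model of 4 exons and 408 nt had 125 reads in replicate 1, 61.0% of them (53.9 to 67.7%), and 0 of 319 in replicate 2 (interval 0 to 1.15%). The full-length Eif3c-201, of 21 exons, had 17 reads in replicate 1 and 235 in replicate 2. For Eif2s2, a model of 4 exons had 129 reads in replicate 1, 43.1% of them, and 2 in replicate 2. An annotated retained-intron transcript of Eif2s2, which ends at the same position, had 112 reads in replicate 1 and 0 in replicate 2, and the full-length Eif2s2-201 had 39 and 16.

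Reads of Eif3a, the scaffold subunit of eIF3, stopped short in both libraries. Its most read model, of 16 exons, had 38 reads in replicate 1, 26.2% (19.3 to 34.2%), and 101 reads in replicate 2, 37.0% (31.3 to 43.0%). The full-length Eif3a-201, of 22 exons and 5125 nt, had only 5 reads in replicate 1 and 13 in replicate 2. The level of Eif3a given above is therefore made up mainly of reads that do not reach the annotated 3′ end.

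The sequence around the end of these 4 models is shown because all 4 end inside the coding sequence, far before the 3′ end of the full-length transcript. Each line gives the last 30 bases before the end of the model in lower case and the next 30 bases of the spliced full-length transcript in capitals, from GENCODE M21 on mm10.
Eif5 end: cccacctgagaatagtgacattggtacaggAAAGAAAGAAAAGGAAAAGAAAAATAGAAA
Eif2s2 end: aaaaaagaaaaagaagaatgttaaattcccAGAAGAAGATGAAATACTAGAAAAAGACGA
Eif3c end: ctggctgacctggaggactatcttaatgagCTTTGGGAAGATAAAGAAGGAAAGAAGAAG
Eif3a end: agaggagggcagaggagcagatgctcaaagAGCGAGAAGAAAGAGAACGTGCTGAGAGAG

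Of the 30 bases that follow the Eif5 end, at position 111541727 of chromosome 12, 23 were A, and no 30-base window of Eif5-202 held more. A made up 29.7% of that transcript as a whole. After the Eif2s2 end, at 154884343 of chromosome 2, 18 of 30 bases were A, and 18 of the 30 before it as well, where Eif2s2-201 holds 30.4% A. After the Eif3c end 15 of 30 were A, where Eif3c-201 holds 28.8%, and after the Eif3a end 13 of 30, where Eif3a-201 holds 32.2%. At least as many A were held by 2.43% of the 30-base windows of Eif2s2-201 and 3.55% of those of Eif3c-201. For Eif3a-201 it was 19.2% of windows, so that stretch is not unusual in its transcript. The Eif3c and Eif3a models end at an exon border, and the Eif5 and Eif2s2 models within an exon. These ends are those of the deposited models, and the ends of single reads were not used here. Whether the A content bears on where the reads end was not tested.

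**Figure D5:**
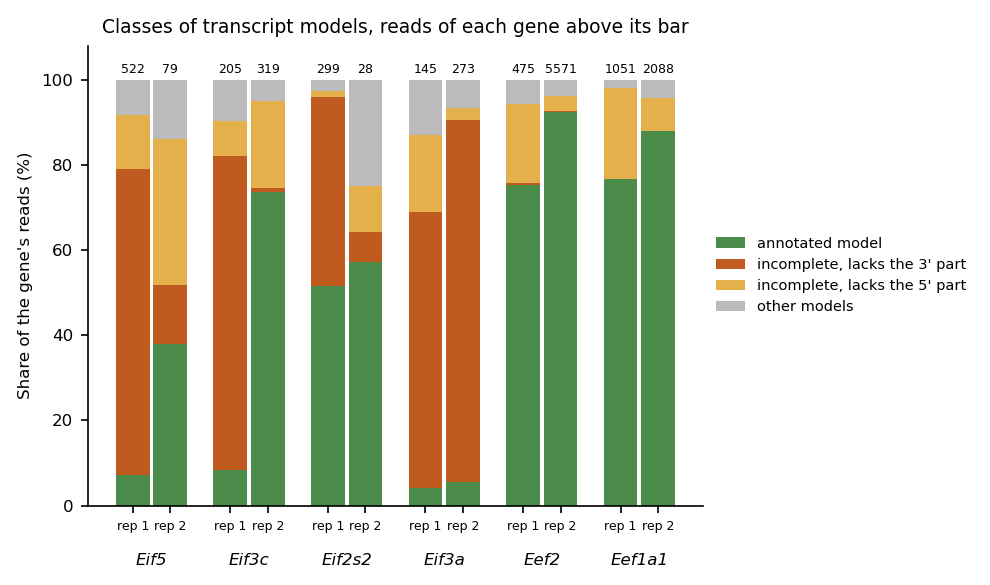
Share of the reads of 6 genes (percent) on annotated models, on incomplete models of the prefix type (lacking the 3′ part) or the suffix type (lacking the 5′ part), and on other models, with replicate 1 left of replicate 2 in each pair and the number of reads above each bar. Prefix models hold 71.6% of Eif5 reads in replicate 1 and 13.9% in replicate 2, 73.7% and 0.940% for Eif3c, and 64.8% and 85.0% for Eif3a.

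The most read model was the same in both libraries for 31 of 38 factors with at least 10 reads in each. It differed for 7 (18.4%), near the 23.6% of all 4806 genes. Besides Eif5, Eif3c and Eif2s2 these were Eif4e2, Eif5b, Eif4g1 and Eif4g3. In Eif4e2 the short annotated transcript Eif4e2-204, of 1119 nt, had 25 of 50 reads in replicate 1 and 1 of 83 in replicate 2. The long Eif4e2-202, of 3394 nt, had 3 reads in replicate 1 and 23 in replicate 2. In Eif5b, the subunit-joining GTPase, the most read model in replicate 1 was a start of 4 exons with 25 of 87 reads, and no model had more than 2 of its 10 reads in replicate 2. In this count the unspliced reads of a gene were pooled as 1 model. In Eif4g1 and Eif4g3 these led in replicate 1, with 6 of 27 and 12 of 29 reads, and incomplete models of 24 exons led in replicate 2, with 12 of 120 and 9 of 49 reads. With unspliced reads left out, a choice made after the values were seen, the most read model differed for 6 of 37 factors (16.2%), near the 16.7% of all 4066 genes. The 6 were those named apart from Eif5b.

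Annotated models took 77.2% of the reads of the factors in replicate 1 (76.4 to 78.1%) and 84.1% in replicate 2 (83.4 to 84.7%). The share in replicate 2 is raised by Eef2, which held 46.1% of the reads of the factors there. Of the annotated reads, 98.2% and 99.8% fell on transcripts of the protein-coding type. In replicate 1 both main elongation factors lay below the median of 83.7% annotated reads over 55 factors, and in replicate 2 both lay above the median of 82.1% over 33. Eef2-201, of 14 exons and 3089 nt, held 357 of 475 reads in replicate 1, 75.2%, and 5141 of 5571 in replicate 2, 92.3%. Eef1a1-201 held 804 of 1051 reads, 76.5%, and 1834 of 2088, 87.8%. Eif1-201 held 700 of 712 and 26 of 27 reads.

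Models with unannotated junctions took a smaller share than over all genes. They made up 2.99% of the reads of the factors in replicate 1 (2.66 to 3.34%) and 5.10% in replicate 2 (4.71 to 5.51%), against 5.64% and 11.9% over all autosomal protein-coding genes, so that neither interval reaches the share of all genes. No such model held 10% of the reads in both libraries, among genes with at least 20 reads in each. In replicate 1, 158 of 204 such models had a single read, and in replicate 2, 264 of 333. The same chain of unannotated junctions was found in both libraries 21 times, in 14 genes. The most read of these were an Eef1a1 model 4 nt longer than the annotated one, with 10 reads in replicate 1 and 41 in replicate 2, and an Eef2 model 2 nt longer, with 2 and 46. In Eif4e2 an unannotated combination of known sites had 2 of 50 reads in replicate 1 and 16 of 83 in replicate 2. Among reads with a new splice site, all new sites lay within 10 nt of an annotated one for 67.2% in replicate 1 (59.8 to 74.1%) and 59.1% in replicate 2 (52.3 to 65.7%), against 45.7% and 42.6% over all autosomal protein-coding genes.

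Genes that work with these factors but carry other names had median ratios closer to 0. The lists differ in the length of their transcripts, and the ratios in this paragraph are not corrected for it. Of 8 genes of termination and ribosome recycling with at least 10 reads, 3 lay at least 2-fold on the side of replicate 1 and 2 on that of replicate 2, with a median log2 ratio of -0.24. Of 11 poly(A)-binding and closed-loop genes, 3 lay on each side, with a median of 0.27. Of 9 mitochondrial translation factors, 4 and 2 lay on these sides, with a median of 0.42. Of 8 enzymes that make hypusine on eIF5A and diphthamide on eEF2, 4 and 0 did, with a median of 0.88. Both hypusine enzymes were among these 4, with 26 and 3 reads for Dhps and 79 and 9 reads for Dohh in replicates 1 and 2. Their models have 1333 and 1444 nt, in the class where 87.7% of all genes lay on the side of replicate 1. Of 11 mTOR and MNK signalling genes, which control eIF4E, 1 and 2 did, with a median of 0.16. Of 6 genes of the eIF2 phosphatase and stress response, 2 and 3 did, with a median of -0.79. Both subunits that lead the phosphatase to eIF2 alpha were on the side of replicate 2, with 28 and 95 reads for Ppp1r15a and 11 and 32 reads for Ppp1r15b in replicates 1 and 2. The 2 genes on the side of replicate 1 were Atf4, with 78 and 29 reads, and Ddit3, with 23 and 10 reads.

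Some factors overlap another gene, and whether the counting used strand is not given in the labels. Eif1ad overlaps Banf1, and Eef1b2 overlaps Ndufs1, on opposite strands. Eef1akmt2 overlaps Fgfr2 on the same strand, which had 55 reads in replicate 1 and 186 in replicate 2, so the counts of Eef1akmt2 are uncertain. Also on the same strand, Eef1d overlaps Naprt (8 and 6 reads) and Eif4e3 overlaps Gm20696 (3 and 2). Eef1akmt4 likewise overlaps Gm49333 (1 and 1 reads) and Eif4ebp3 overlaps AC115631.1 (4 and 0). The counts of these factors carry the same uncertainty.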

How the data were processed

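Each library was deposited by the authors as a table of raw counts, 1 whole number of reads for every transcript model, and an annotation of the models whose attributes are those of TALON. The labels name mm10 and GENCODE M21. Aligner and read correction: not given in the sources used here. Gene counts were the sum over a gene's models, and CPM was taken over all reads of a library. Ratios of replicate 1 over replicate 2 used TMM totals (edgeR 4.0.16) for genes with at least 10 reads over both libraries, with past 2-fold as the call and exact binomial intervals at 95%. The length trend was a lowess curve (statsmodels 0.14.6, span 0.3, pseudocount 0.5) over genes with at least 20 reads. Unannotated models were matched across libraries by their junctions. Intervals of shares were Clopper-Pearson intervals (scipy 1.17.1). DESeq2 1.42.0 size factors, total counts, other read minimums and other model sets were tried as alternatives. Ratio calls and intervals were tested on simulated data with known answers. Sequences came from the GENCODE M21 transcripts. Because both libraries belong to 1 group, no test was run, and the replicates may differ for technical reasons.

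Genes named with values are the 3 with the highest mean CPM in each role group, the 6 with the largest ratio in each direction, those whose most read model or exon inclusion differs, and paralogs of these. Other genes named with values, such as those with a varying exon or far from the length trend, were chosen after their values were seen. The genes, lists and rules were chosen with earlier results of these data known.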

Additional observations from a re-analysis of the deposited data

How the results depend on the processing

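The number of factors at least 2-fold higher in replicate 1 was 37 of 60. It was 24 of 45 with a minimum of 50 reads, and lay between 27 and 38 under the other 6 settings tried. The number higher in replicate 2 was 9 of 60. It was 15 of 60 with total counts in place of TMM, which shifts the median of all genes by -0.47 on the log2 scale, and lay between 8 and 11 under the other 6 settings. The share of reads on models with unannotated junctions, 4.04% ± 1.49 as the mean of both libraries, was 2.23% when models with 1 read in a library were left out. The number of genes with the same most read model was 20 of 23 with at least 30 reads in each library, in place of 31 of 38. It was 32 of 34 over annotated models alone, and 31 of 37 with unspliced reads left out, a choice made after the data were seen. No exon differed under any of the settings tried, with 3 exons left at 50 reads and 4 when models with 1 read were left out.

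With a single library left, the share of all reads on the factors lay between 1.21 and 2.05%, and the share on unannotated junctions between 2.99 and 5.10%. Without Eef2, a choice made after the data were seen, the mean share of all reads was 1.13%. A ratio between the libraries cannot be had without either of them. No paired analysis was possible because the 2 replicates form 1 group and no other group shares their numbers. Depth limits genes under 10 reads, for which no ratio is given, and exons under 20 reads, for which no inclusion is given.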

Other observations

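Of the Eif genes outside the autosomes, the X-linked Eif1ax, the gene for eIF1A on that chromosome, had 94 and 119 reads in replicates 1 and 2. The X-linked Eif2s3x, the gamma subunit of eIF2, had 29 and 266 reads. The autosomal alpha and beta subunits lay on the other side, with 138 and 16 reads for Eif2s1 and 299 and 28 reads for Eif2s2 in replicates 1 and 2. Of the processed pseudogenes named after these factors, Eif4a-ps4 had 2 reads in replicate 2, and the other 9 had none in either library.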
